A study of Mus musculus with 9 samples.

Results

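The circadian clock genes described here are Per1, Per2, Per3, Cry1, Cry2, Nr1d1, Nr1d2, Dbp, Arntl and Clock, which were taken by symbol from a table of mRNA read counts in mouse embryonic fibroblasts (MEFs). They are 10 of 35275 genes in the table, and all 10 were among the 13082 genes with enough reads to be tested. The study asked how MEFs change their gene expression as hyperosmotic stress becomes stronger. MEFs of strain C57Bl/6, described as wild type, were left in iso-osmolar medium (300 mOsm) or given medium with 200 mM added sucrose (500 mOsm, low-intensity stress) or 300 mM added sucrose (600 mOsm, high-intensity stress). Stress lasted 3 h, and how long the control cells were mock-treated is not given in the sources used here. Each treatment had 3 libraries of poly-A RNA. The sources used here do not say whether these came from separate cultures, so p-values measure only the spread between these libraries, which may be technical. The MEFs were a line kept in the laboratory, so all 9 libraries share whatever is particular to it, and no treatment to align the phase of the clock between cells is mentioned. All libraries were harvested for 1 duration of stress, so a level at 1 moment was measured and not a rhythm.

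The mammalian clock is a loop of transcription and translation that runs in most cell types, cultured fibroblasts included. The proteins CLOCK and BMAL1 (the product of Arntl) bind DNA as a pair at E-box motifs and switch on the Per and Cry genes, whose products then return to the nucleus and repress that pair. In a linked loop, REV-ERBα and REV-ERBβ (the products of Nr1d1 and Nr1d2) repress Arntl, and DBP acts at D-box motifs as an output of the clock. Per1 and Per2 also respond quickly to signals from outside the cell, which is one way in which clocks are reset.

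Library totals ran from 21716042 to 26740832 counted reads, and 3 reads corresponded to 0.112 to 0.138 CPM when scaled by library total alone. The CPM values given otherwise are counts scaled by library total and TMM factor. The 11 fibroblast markers summed to 20716.9 to 21853.1 CPM in iso-osmolar libraries, 20805.2 to 21626.2 at 500 mOsm and 23487.5 to 25212.7 at 600 mOsm, where every library lay above the others, and its part in the results at 600 mOsm was not tested. Of these markers Dcn and Lum had at most 3 reads in any library. Col1a1 was the largest part of the sum, with a mean of 8939 CPM in iso-osmolar libraries and 11244 at 600 mOsm. Col1a2, Fn1, Thy1, Pdgfrb and S100a4 were also higher on average at 600 mOsm than in iso-osmolar libraries. Lower there were Col3a1 (mean 30.2 against 47.5 CPM), Pdgfra (23.6 against 37.7) and Vim (3768 against 3915). The 4 endothelial markers summed to 0.778 to 0.899 CPM in iso-osmolar libraries, 11.9 to 13.4 at 500 mOsm and 2.13 to 3.18 at 600 mOsm. The 4 epithelial markers summed to 0.0817 to 0.164, 3.51 to 3.81 and 0.179 to 0.251 CPM in the same order, and Epcam had at most 1 read in any library. The 4 leukocyte markers in the table reached 15.7 to 19.9, 21.7 to 34.1 and 18.3 to 29.0 CPM, with Ptprc at no more than 7 reads. Neural markers summed to 16.3 to 22.2 CPM and muscle markers to 0.0409 to 0.313 CPM over all libraries, with Myog at 0 reads. The neural markers moved in opposite directions at 500 mOsm. Mean Sox2 was 2.10 CPM there against 5.47 in iso-osmolar libraries, Tubb3 3.27 against 1.34 and Map2 14.1 against 11.3. The endothelial and epithelial sums were highest in the 500 mOsm libraries, where Per1 and Cry2 were lowest, and their part in those results was not tested. These sums came mostly from 1 gene each, Pecam1 (mean 11.1 CPM at 500 mOsm against 0.279 in iso-osmolar libraries) and Cdh1 (3.46 against 0.0137). In the same comparison Kdr was at 0.353 against 0, Tek at 0.480 against 0.0152 and Krt18 at 0.116 against 0.0152. These 3 genes had at most 11, 13 and 5 reads in any library. Cdh5 was at 0.568 against 0.553 and Krt14 at 0.0635 against 0.0834.

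Stretches of promoter are shown for Per1, Cry1 and Per3, because these hold the motifs through which the loop is known to act. The RefSeq promoter table (GRCm38.p6, the mm10 assembly) had entries for 9 of the 10 genes. Per2 had none, so its promoter was not searched. For the others, the 250 bases before each start were searched on both strands. Some genes have more than 1 entry, so the 9 genes have 13 promoters. The E-box CACGTG was found before Per1 and Cry1, that is in 2 of 9 genes and 2 of the 13 promoters. Of all 32851 promoters, 6.02% hold it. The D-box, searched as TTATGTAA or TTACGTAA, was found only before Per3, at 205 and 158 bases upstream. That is 1 of the 13 promoters, and 0.931% of all promoters hold it. Each stretch is given 5′ to 3′ on the gene's own strand, with the motif in capitals, and none of these stretches contains an annotated exon base of its own gene. The Per1 stretch lies within the Per1 gene as counted (chr11:69095217-69109960), before a start inside that gene.
Per1 E-box, 166 bases upstream, chr11:69098761-69098810, plus strand: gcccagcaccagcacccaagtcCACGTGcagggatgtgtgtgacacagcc
Cry1 E-box, 60 bases upstream, chr10:85185087-85185136, minus strand: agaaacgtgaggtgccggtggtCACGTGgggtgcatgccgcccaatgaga
Per3 upstream D-box, chr4:151044841-151044892, minus strand: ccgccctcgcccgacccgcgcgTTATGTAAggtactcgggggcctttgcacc
Per3 downstream D-box, chr4:151044794-151044845, minus strand: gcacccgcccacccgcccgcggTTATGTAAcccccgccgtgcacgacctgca

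The hexamer AGGTCA, to which REV-ERB proteins bind, was found before Per1, Nr1d2 and Clock, in 3 of the 13 promoters, against 14% of all promoters. The cAMP response element TGACGTCA was found before none of the 9 genes, against 1.55% of all promoters. Its shortened form TGACG was found before Per1, Cry1 and Cry2, in 4 of the 13 promoters, against 17.8% of all promoters. The full element contains the shortened form. These matches describe letters in short windows and say nothing about binding in these cells.

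Low-intensity stress lowered 5 of the 10 clock genes and raised none. Per2, Per1 and Cry2 fell to well under the iso-osmolar level, while Nr1d1 and Cry1 fell by smaller amounts. Among all genes tested, low-intensity stress lowered 14.8% and raised 13.2%, by edgeR's quasi-likelihood test at an adjusted p under 0.05. The 500 mOsm and iso-osmolar libraries did not overlap for 6 of the 10 genes, against 40.9% of all genes tested. The median log2 fold change was -0.29 over the 10 genes and 0.013 over all genes tested.

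High-intensity stress lowered 6 of the 10 and raised none, against 20.0% of all genes lower and 15.1% higher. For 6 of the 10 the libraries did not overlap, against 48.4% of all genes, and the median log2 fold change was -0.31 over the 10 and 0.0075 over all genes. The comparisons with iso-osmolar medium share the same 3 control libraries. Between the stress intensities, 2 genes were higher at 600 than at 500 mOsm and 1 was lower, against 11.9% and 17.2% of all genes. The groups did not overlap for 3 of the 10, against 41.5% of all genes. In bulk RNA, fewer cells that express a gene and less RNA per cell cannot be told apart.

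**Figure D1:**
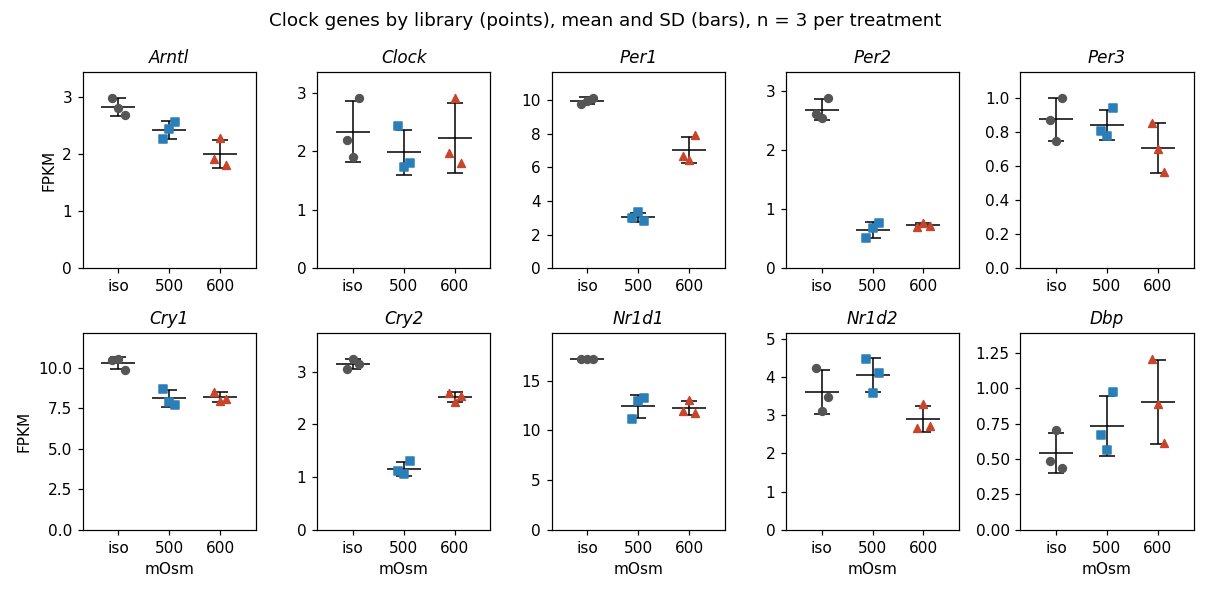
Level of each clock gene (vertical axis, FPKM, starting at 0 with its own scale in each panel) in iso-osmolar, 500 mOsm and 600 mOsm medium (horizontal axis). Points are libraries, the wide line is the mean and the error bar the SD of 3 libraries. Per1 and Cry2 are lowest at 500 mOsm and lie between at 600 mOsm, while Per2 is low at both.

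The positive arm comprises Arntl and Clock. Arntl (chr7:113207465-113314122, mm10) encodes BMAL1, the partner without which the CLOCK protein does not drive the loop. Its level, in FPKM (fragments scaled by gene length and library total), was 2.997, 2.814 and 2.689 in the iso-osmolar libraries. At 500 mOsm it was 2.27, 2.45 and 2.57 FPKM. At 600 mOsm it was 1.93, 2.29 and 1.81 FPKM. Every stressed library lay below every iso-osmolar one, and the stressed groups overlapped each other. At 600 mOsm Arntl fell by 28.3%, a log2 fold change of -0.48 ± 0.11 (SE, n = 3 against 3, adjusted p = 0.00522). At 500 mOsm the log2 fold change was -0.22 with a 95% interval from -0.45 to 0.016, which did not pass (adjusted p = 0.161).

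Clock (chr5:76212177-76304548) encodes the other partner of the activating pair. Its iso-osmolar libraries were at 2.19, 1.90 and 2.92 FPKM. The 500 mOsm libraries were at 2.431, 1.730 and 1.802 FPKM, and the 600 mOsm libraries at 1.973, 2.921 and 1.797 FPKM. In each treatment 1 library lay well above the other two, and all groups overlapped. The log2 fold change of Clock was -0.23 at 500 mOsm (95% interval -0.65 to 0.18, adjusted p = 0.416). At 600 mOsm it was -0.057 (interval -0.47 to 0.36, adjusted p = 0.844), and its sign turned when gene length and GC content were corrected for.

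The Per genes encode the PERIOD proteins of the repressing arm. Per1 (chr11:69095217-69109960), whose E-box is shown above, was at 9.74, 9.95 and 10.2 FPKM in iso-osmolar medium. It was at 2.98, 3.32 and 2.82 FPKM at 500 mOsm. It was at 6.70, 6.47 and 7.92 FPKM at 600 mOsm. The groups did not overlap in any pair, with low-intensity stress lowest and high-intensity stress in between. Per1 fell by 69.3% at 500 mOsm, a log2 fold change of -1.70 ± 0.097 (SE, adjusted p = 6.16e-08). At 600 mOsm it fell by 28.2%, a log2 fold change of -0.48 ± 0.092 (adjusted p = 0.00159). The direct comparison put Per1 2.34-fold higher at 600 than at 500 mOsm (log2 fold change 1.23, 95% interval 1.01 to 1.44, adjusted p = 1.50e-06).

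Per2 (chr1:91415982-91459324) is the paralog whose loss is best known for disturbing rhythms. Its iso-osmolar libraries were at 2.61, 2.55 and 2.89 FPKM. At 500 mOsm they were at 0.508, 0.680 and 0.768 FPKM, and at 600 mOsm at 0.703, 0.775 and 0.723 FPKM. Both stressed groups lay far below the iso-osmolar one and overlapped each other. Per2 had the largest fall of the 10 genes in both comparisons, except that at 500 mOsm limma on log2(FPKM + 1), which understates the change of low genes, gave -1.16 for Per2 and -1.44 for Per1. It fell by 75.6% at 500 mOsm (log2 fold change -2.03 ± 0.13 SE, adjusted p = 1.68e-07). At 600 mOsm it fell by 72.3% (log2 fold change -1.85 ± 0.13, adjusted p = 4.19e-07). Between the stress intensities the log2 difference was 0.18, with an interval from -0.13 to 0.50 (adjusted p = 0.383). It passed at 0.39 when gene length and GC content were corrected for by least-squares loess (adjusted p = 0.0478), and was 0.036 without 500 mOsm replicate 1 and 0.31 without 500 mOsm replicate 3.

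Per3 (chr4:151003652-151044665), a paralog considered dispensable for the core loop, was at 0.875, 0.752 and 1.01 FPKM in iso-osmolar medium. It was at 0.809, 0.779 and 0.946 FPKM at 500 mOsm, and at 0.857, 0.701 and 0.565 FPKM at 600 mOsm. All groups overlapped. The log2 fold change was -0.051 at 500 mOsm (interval -0.39 to 0.29, adjusted p = 0.851) and -0.29 at 600 mOsm (interval -0.65 to 0.058, adjusted p = 0.181). At 500 mOsm the interval of Per3 thus lay wholly above those of Per1, -1.92 to -1.49, and Per2, -2.32 to -1.75. All 41014 bases of Per3 lie within Camta1 on the same strand, with 0 shared exon bases. Camta1 had log2 fold changes of 0.12 at 500 mOsm (adjusted p = 0.561) and -0.13 at 600 mOsm (adjusted p = 0.49).

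The Cry genes encode the cryptochromes, which bind the PERIOD proteins and repress the CLOCK and BMAL1 pair. Cry1 (chr10:85131702-85185054) was at 10.5, 10.5 and 9.90 FPKM in iso-osmolar medium. It was at 8.70, 7.89 and 7.74 FPKM at 500 mOsm, and at 8.54, 7.98 and 8.05 FPKM at 600 mOsm. Every stressed library was below every control, and the stressed groups overlapped. Cry1 fell by 21.2% at 500 mOsm (log2 fold change -0.34 ± 0.073 SE, adjusted p = 0.00306) and fell by 19.5% at 600 mOsm (-0.31 ± 0.073, adjusted p = 0.00542). The log2 difference between the stress intensities was 0.032, with an interval from -0.13 to 0.19 (adjusted p = 0.786).

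Cry2 (chr2:92403646-92434043) was at 3.05, 3.24 and 3.14 FPKM in iso-osmolar medium. At 500 mOsm it was at 1.12, 1.05 and 1.31 FPKM. At 600 mOsm it was at 2.60, 2.42 and 2.54 FPKM. As for Per1, no pair of groups overlapped, and the lowest values were those of low-intensity stress. Cry2 fell by 63.0% at 500 mOsm (log2 fold change -1.43 ± 0.10 SE, adjusted p = 4.91e-07) and was 2.20-fold higher at 600 than at 500 mOsm (log2 fold change 1.14, interval 0.91 to 1.36, adjusted p = 5.72e-06). The smaller difference between 600 mOsm and iso-osmolar medium, a fall of 18.7% (log2 fold change -0.30 ± 0.097, adjusted p = 0.0308), passed only narrowly. Its call was lost with DESeq2 (adjusted p = 0.0623), without a gene filter (0.0661) and when any 1 of 5 libraries was left out, namely iso-osmolar replicate 2 (0.0981), iso-osmolar replicate 3 (0.066) or 600 mOsm replicate 1 (0.0604), 2 (0.0923) or 3 (0.0604). Cry2 shares 295 exon bases, 4.67% of its own, with D930015M05Rik on the opposite strand, a transcript with at most 3 reads in any library.

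**Figure D2:**
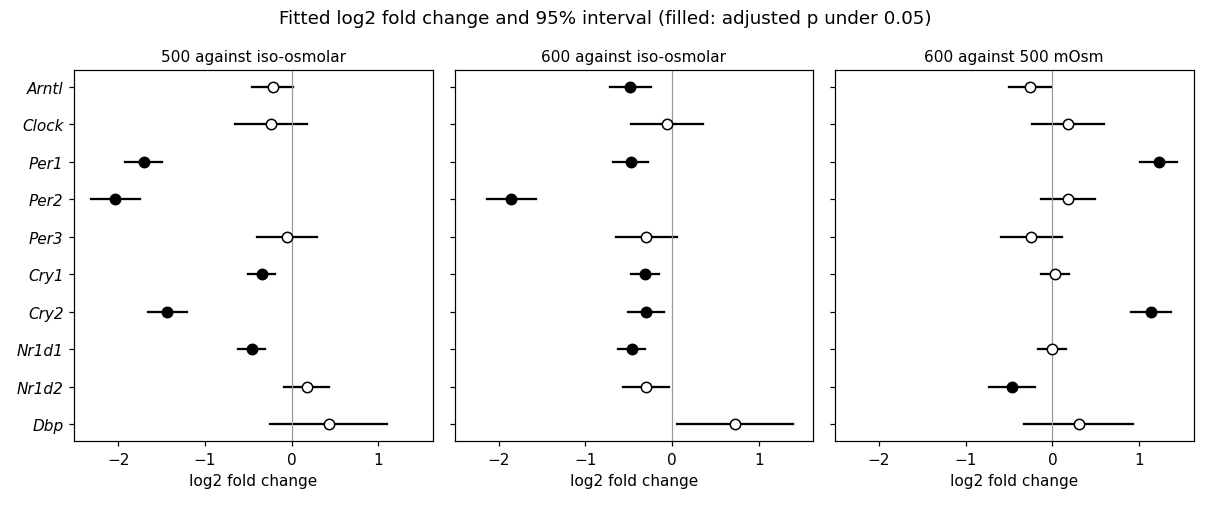
Fitted log2 fold change (horizontal axis) of each clock gene (vertical axis) at 500 mOsm against iso-osmolar medium, at 600 mOsm against iso-osmolar medium, and at 600 against 500 mOsm. Lines are 95% intervals, and filled circles mark an adjusted p under 0.05. Per1 and Cry2 are the only filled circles to the right of 0, both in the comparison of 600 with 500 mOsm.

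Within a library, the balance between paralogs differed by treatment. The ratio of Per1 to Per2 FPKM was 3.71 ± 0.19 (SD, n = 3) in control libraries, 4.81 ± 1.11 under low-intensity and 9.61 ± 1.31 under high-intensity stress. The 600 mOsm libraries, from 8.342 to 10.96, all lay above the others, while the 500 mOsm libraries, from 3.67 to 5.88, overlapped the iso-osmolar range of 3.51 to 3.90. The ratio of Cry1 to Cry2 was 3.28 ± 0.15 in control libraries, 7.06 ± 1.02 under low-intensity and 3.25 ± 0.068 under high-intensity stress. Here the 500 mOsm libraries, from 5.90 to 7.79, stood apart from the other two groups, which overlapped. The summed level of the 5 Per and Cry genes was 27.0 ± 0.17 FPKM in control libraries, 13.8 ± 0.28 under low-intensity and 19.2 ± 0.75 under high-intensity stress. These ratios and sums are descriptions, and no test was run on them.

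**Figure D3:**
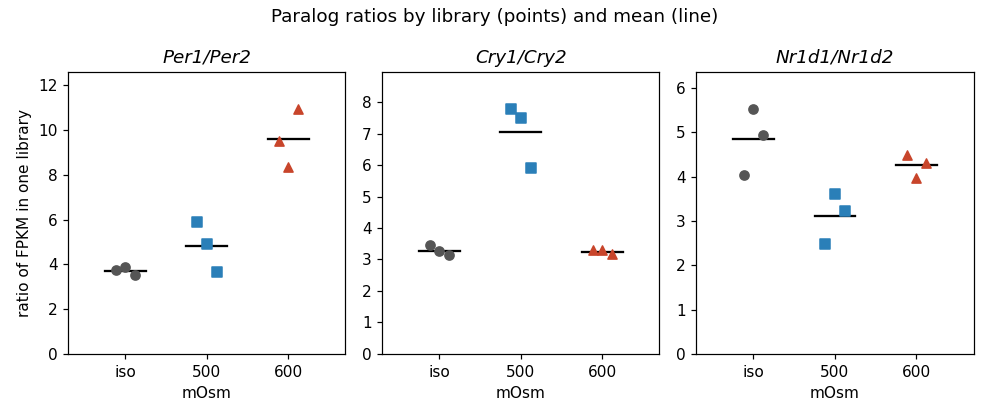
Ratio of FPKM between paralogs in one library (vertical axis, starting at 0) by treatment (horizontal axis), for Per1 to Per2, Cry1 to Cry2 and Nr1d1 to Nr1d2. Points are libraries and lines are means of 3. The Per1 to Per2 ratio is highest at 600 mOsm, and the Cry1 to Cry2 ratio is highest at 500 mOsm.

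Nr1d1 and Nr1d2 encode the nuclear receptors of the second loop. Nr1d1 (chr11:98767932-98775333) had the highest FPKM of the 10 genes under every treatment. Its iso-osmolar libraries were at 17.1, 17.2 and 17.2 FPKM. It was at 11.1, 13.0 and 13.2 FPKM at 500 mOsm, and at 11.9, 13.1 and 11.8 FPKM at 600 mOsm. Every stressed library lay below every control, and the stressed groups overlapped. Nr1d1 fell by 27.4% at 500 mOsm (log2 fold change -0.46 ± 0.072 SE, adjusted p = 0.000335) and fell by 27.6% at 600 mOsm (-0.47 ± 0.072, adjusted p = 0.000351). The log2 difference between the stress intensities was -0.0042, with an interval from -0.16 to 0.15 (adjusted p = 0.976). Nr1d1 shares 263 exon bases, 8.55% of its own, with Thra on the opposite strand. Thra, a thyroid hormone receptor gene, had a log2 fold change of 0.22 at 500 mOsm (adjusted p = 0.115) and was higher at 600 mOsm by 0.29 (adjusted p = 0.0385). Because the sources used here do not give the strand setting of the counting, reads in the shared bases cannot be assigned to either gene.

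Nr1d2 (chr14:18204054-18239127) was at 4.25, 3.10 and 3.47 FPKM in iso-osmolar medium. At 500 mOsm it was at 4.47, 3.58 and 4.11 FPKM, and at 600 mOsm at 2.67, 3.30 and 2.73 FPKM. The iso-osmolar libraries overlapped both stressed groups, which did not overlap each other. Nr1d2 was 27.8% lower at 600 than at 500 mOsm (log2 fold change -0.47, interval -0.73 to -0.21, adjusted p = 0.0116), a call that was lost without 500 mOsm replicate 1 (0.0512) or 600 mOsm replicate 1 (0.0577). Against iso-osmolar medium its log2 fold change was 0.17 at 500 mOsm (interval -0.088 to 0.43, adjusted p = 0.328) and -0.30 at 600 mOsm (interval -0.56 to -0.029, adjusted p = 0.0799). The latter passed without a gene filter (0.032), without iso-osmolar replicate 2 (0.0398) and without 600 mOsm replicate 2 (0.043). The ratio of Nr1d1 to Nr1d2 FPKM was 4.84 ± 0.76 (SD, n = 3) in control libraries, 3.11 ± 0.58 under low-intensity and 4.26 ± 0.26 under high-intensity stress, and the 500 mOsm libraries lay below all others.

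Dbp (chr7:45705088-45710155) encodes a transcription factor whose mRNA cycles strongly in many tissues, and it had the fewest reads of the 10 genes, 19 to 52 in a library. Its FPKM was 0.489, 0.705 and 0.439 in iso-osmolar medium. It was 0.667, 0.564 and 0.971 at 500 mOsm, and 1.205, 0.885 and 0.610 at 600 mOsm. All groups overlapped, and Dbp was the only one of the 10 genes with a positive fitted change at 600 mOsm against iso-osmolar medium. The log2 fold change was 0.43 at 500 mOsm (interval -0.25 to 1.10, adjusted p = 0.358) and 0.73 at 600 mOsm (interval 0.063 to 1.39, adjusted p = 0.0835). The value at 600 mOsm passed without a gene filter (adjusted p = 0.0269) and without 600 mOsm replicate 3 (0.0383). Dbp also shares 539 exon bases, 18% of its own, with Sphk2 on the opposite strand, and Sphk2 had 599 to 959 reads in a library. As for Nr1d1 and Thra, reads in the shared bases cannot be assigned to either gene. Sphk2 had log2 fold changes of 0.021 at 500 mOsm (adjusted p = 0.932) and 0.17 at 600 mOsm (adjusted p = 0.341).

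Among the 38 tested genes of 43 that act around the core loop, low-intensity stress raised 3 and lowered 7, and high-intensity stress raised 1 and lowered 16. Between the stress intensities 3 were higher and 15 lower at 600 mOsm. With the least-squares correction for length and GC content, these counts were 2 higher and 13 lower at 500 mOsm, 2 and 16 at 600 mOsm, and 8 and 10 between the stress intensities. The shares of all genes given above for each comparison apply to the counts without this correction. With it, 1581 of the 13082 genes tested were higher and 3537 lower at 500 mOsm. At 600 mOsm these were 2355 and 2579, and between the stress intensities 3587 and 1726. A robust form of the correction, added after these results were seen, gave 3 higher and 9 lower of the 38 at 500 mOsm. At 600 mOsm it gave 3 and 17, and between the stress intensities 5 and 17. Over all genes it gave 2278 higher and 2157 lower at 500 mOsm, and 2408 and 2552 at 600 mOsm. Between the stress intensities these were 1894 and 2243. Without the correction, the median log2 fold change of the 38 was -0.032 at 500 mOsm, -0.20 at 600 mOsm and -0.14 between the stress intensities. The 5 genes left untested, Hlf and Fbxl21 among them, had at most 16 reads in any library.

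Of 9 tested output genes, 3 fell and 1 rose at 500 mOsm, and 2 fell at 600 mOsm. Among all genes tested, 14.8% fell and 13.2% rose at 500 mOsm, and 20.0% fell and 15.1% rose at 600 mOsm. The counts by role given here and below cover few genes, and are not read as results about a role. Bhlhe40, which encodes the repressor DEC1, fell in both, by 1.09 on the log2 scale at 500 mOsm (adjusted p = 2.29e-07) and by 1.34 at 600 mOsm (adjusted p = 5.88e-08). Its iso-osmolar libraries held 11.9 to 12.6 FPKM, those at 500 mOsm 5.35 to 6.07 and those at 600 mOsm 4.65 to 5.10. Wee1, a kinase that restrains entry into mitosis, fell by 0.83 on the log2 scale at 500 mOsm (adjusted p = 0.000997) and was higher by 0.79 at 600 than at 500 mOsm (adjusted p = 0.0017). Noct, a clock-controlled gene once described as a deadenylase, had a log2 fold change of -0.0020 at 500 mOsm (adjusted p = 0.991) and fell by 0.94 at 600 mOsm (adjusted p = 6.64e-06). Neither tested paralog of the activators, Npas2 and Arntl2, passed the test in any comparison.

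Of 11 tested modifiers of clock proteins, 2 fell and 1 rose at 500 mOsm, and 5 fell at 600 mOsm. Of all genes tested, 14.8% fell and 13.2% rose at 500 mOsm, and 20.0% fell at 600 mOsm. Fbxw7, a substrate receptor of a ubiquitin ligase, had log2 fold changes of -1.18 at 500 mOsm (adjusted p = 3.85e-05) and -0.71 at 600 mOsm (adjusted p = 0.00164). Fbxw11, a related receptor that recognises phosphorylated PERIOD, fell by 0.51 at 600 mOsm (adjusted p = 5.27e-05), and Gsk3b, a kinase of several clock proteins, fell by 0.57 (adjusted p = 1.57e-05).

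Of all genes tested, 13.2% rose at 500 mOsm, and 20.0% fell and 15.1% rose at 600 mOsm. Of 7 tested coregulators, 1 rose at 500 mOsm, and 3 fell and 1 rose at 600 mOsm. The latter was Hdac3, a histone deacetylase named after its value was seen (log2 fold change 0.15, adjusted p = 0.0346), and none of the 38 genes around the core loop was called higher at 600 mOsm with scaling by library size alone, without a gene filter, with limma, or without iso-osmolar replicate 2 or 3, 500 mOsm replicate 2 or 600 mOsm replicate 1 or 3. The 3 that fell modify chromatin, as does Hdac3, which rose. Kmt2a, a histone methyltransferase, had log2 fold changes of -0.033 at 500 mOsm (adjusted p = 0.816) and -1.28 at 600 mOsm (adjusted p = 3.24e-07). The acetyltransferase genes Crebbp and Ep300 fell by 0.87 (adjusted p = 4.28e-06) and 0.79 (adjusted p = 5.93e-07) at 600 mOsm. Between the stress intensities these were lower at 600 mOsm by log2 differences of -1.25 for Kmt2a, -0.91 for Crebbp and -0.79 for Ep300 (adjusted p = 4.73e-07, 3.08e-06 and 7.40e-07). Sirt1, a deacetylase, had a log2 fold change of 0.57 at 500 mOsm (adjusted p = 0.0254). That call was lost without iso-osmolar replicate 2 (0.0652), iso-osmolar replicate 3 (0.0846) or 500 mOsm replicate 1 (0.112). It was also lost with limma on log2(FPKM + 1) (0.0508) and on log2(FPKM + 0.1) (0.0752).

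Of 9 tested genes that carry signals into the clock, 2 fell at 500 mOsm and 6 fell at 600 mOsm. Of all genes tested, 14.8% fell at 500 mOsm and 20.0% at 600 mOsm. Sik1, a kinase that restrains the CRTC coactivators of CREB, fell by 1.005 on the log2 scale at 500 mOsm (adjusted p = 7.95e-06) and by 0.72 at 600 mOsm (adjusted p = 0.000141). At 600 mOsm Crtc3, one of these coactivators, fell by 0.83 (adjusted p = 3.59e-05), and the glucocorticoid receptor gene Nr3c1 fell by 0.50 (adjusted p = 0.00377).

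**Figure D4:**
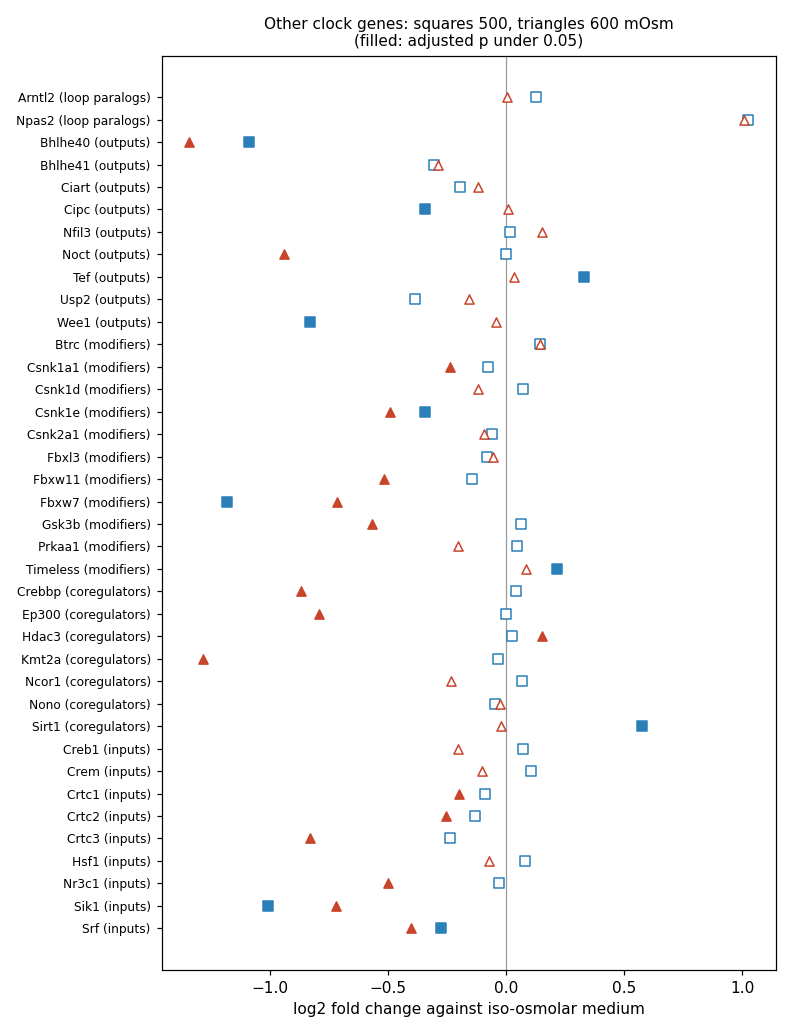
Fitted log2 fold change against iso-osmolar medium (horizontal axis) for each of the 38 tested genes around the core loop, grouped by role (vertical axis). Squares are 500 mOsm and triangles 600 mOsm, filled where the adjusted p was under 0.05. Filled symbols lie mostly to the left of 0, with 7 squares and 16 triangles on that side.

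The gene whose log2 CPM followed a clock gene most closely over the 9 libraries was found among all genes tested, and is given for all of the clock genes but Arntl. It was D17H6S53E for Per1 (Pearson r = 0.995), Xbp1 for Per2 (0.992), Med18 for Cry2 (0.992) and Nrbf2 for Nr1d1 (0.988). It was Dsel for Clock (0.987), Plxnd1 for Cry1 (0.974), Swap70 for Nr1d2 (0.971), Rps25-ps1 for Dbp (0.935) and 4921524J17Rik for Per3 (0.922). Each of these is the highest of 13081 coefficients over libraries that share 3 treatments, and is a description. Rps25-ps1 is a pseudogene, whose reads may be shared with its parent gene. Xbp1, a transcription factor of the unfolded protein response, had log2 fold changes of -1.26 at 500 mOsm and -1.13 at 600 mOsm, where those of Per2 were -2.03 and -1.85. Med18, a subunit of the Mediator complex, had log2 fold changes of -1.75 and -0.32, beside -1.43 and -0.30 for Cry2.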

How the data were processed

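RNA-seq libraries of poly-A RNA from 9 MEF samples (3 per treatment) were sequenced as paired-end reads, filtered and aligned to mm10 by the authors, whose deposited table gives raw read counts and FPKM per gene. The submitters' processing notes name CASAVA 1.8 and STAR. The counting tool and strand setting are not given in the sources used here. The authors' FPKM values are counts divided by gene length and library total. The deposited table also holds the authors' own fold changes and p-values, which were not used.

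Counts were tested with edgeR 4.0.16 in R 4.3.3 (TMM scaling, filterByExpr, quasi-likelihood F-test, 9 libraries in one fit, Benjamini-Hochberg adjustment over 13082 genes, threshold 0.05). Standard errors were derived from the fold change and its F value. Alternatives used DESeq2 1.42.0 and limma 3.58.1 on log2 FPKM, other scalings and filters, a replicate block, libraries left out in turn, and a correction for GC content and length. The latter was first run with least-squares loess. A robust loess was added after those results were seen. The code was tested on simulated data. The 10 genes and the gene lists were chosen with earlier results of these data known. Named genes were the 10, the other clock genes called and changed by 0.5 or more in log2 units (mean log2 CPM 1 or above), the gene most correlated with each, and genes overlapping one in GENCODE. The genes overlapping Arntl and Clock are not described. The gene most correlated with Arntl is not reported here.

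Replicate libraries all differed by more than sampling noise, with a chi-square per degree of freedom of 4.94 to 14.6. Depth limits low genes most, and 3 reads is taken as the floor.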

Additional observations from a re-analysis of the deposited data

Results flagged for a closer look

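Of the 10 clock genes, 3 responded differently to low- and high-intensity stress, by the direct test of 600 against 500 mOsm. Among all genes tested 11.9% were higher and 17.2% lower in that test, so 3 of 10 is close to the share of all genes. The log2 difference was 1.227 for Per1, 1.136 for Cry2 and -0.4696 for Nr1d2, each with 3 libraries against 3. Every 600 mOsm library lay above every 500 mOsm library for Per1 and Cry2, and below for Nr1d2, whose call was lost without 500 mOsm replicate 1 (adjusted p = 0.0512) or 600 mOsm replicate 1 (0.0577). These differences were listed because the effects of low- and high-intensity stress against the same controls were unequal.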

How the results depend on the processing

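Per1 and Per2 at 500 mOsm and Per1 and Cry2 between the stress intensities kept their direction and call under every alternative run. With a change of 1 or more in log2 units also required, the clock genes called were 3 at 500 mOsm, 1 at 600 mOsm and 2 between the stress intensities, and the other clock genes called were 3, 2 and 1. At an adjusted p under 0.01, 10 other clock genes were called between the stress intensities. The shares of all genes under these stricter rules are not given here, so these counts are not read as a result about clock genes. Leaving out 1 library, at an adjusted p under 0.05, gave 11 to 19 between the stress intensities. The 11 came without 600 mOsm replicate 3, where 1112 of 13400 genes were higher and 1878 lower. The 19 came without 500 mOsm replicate 2, where 1412 of 13320 genes were higher and 2087 lower.

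The GC content and length correction with least-squares loess called 5 clock genes between the stress intensities (4 higher, 1 lower), adding Per2 (0.39, adjusted p = 0.0478) and Clock (0.35, adjusted p = 0.0185). Over all genes it gave 3587 higher and 1726 lower, against 1560 and 2250 without it, and moved the median log2 fold change from 0.0061 to 0.093. The robust form, chosen after seeing this, gave 1894 and 2243 with a median of 0.0081, and still called Clock (0.36, adjusted p = 0.0307). Under these corrections the log2 fold change of Clock at 600 mOsm turned to 0.14 and 0.17.

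Signs of uncalled values near 0 also turned. Nr1d1 between the stress intensities was 0.015 without a gene filter and 0.064 with the least-squares correction, and -0.079 to 0.043 with 1 library left out. With 1 library left out, Per3 at 500 mOsm ran from -0.15 to 0.052, Clock at 600 mOsm from -0.28 to 0.13, Clock between the stress intensities from -0.042 to 0.34 and Cry1 there from -0.0079 to 0.084. The cause was not tested. Nr1d2 and Dbp at 600 mOsm against iso-osmolar medium gained a call without a gene filter (adjusted p = 0.032 and 0.0269), and with some libraries left out as given above.

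Same-numbered libraries did not deviate together (mean r = -0.20 over 9 pairs, against 0.10 over 18 pairs of different numbers). With the replicate block, Cry2 at 600 mOsm had a log2 fold change of -0.30 and lost its call (adjusted p = 0.0586), and none of the 38 genes around the core loop was called higher at 600 mOsm.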
